A study of Mus musculus with 16 samples.

Results

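The neurotrophin ligands Bdnf, Ntf3 and Ntf5 and the receptors Ntrk2, Ntrk3 and Ngfr were followed through the hippocampus of wild-type and CBP-deficient mice kept in plain or enriched housing. These 6 genes were taken by name, and a gene was followed where a probe set carried its symbol and no other. Of the 6 genes, 5 had such a probe set, 1 each, among 21780 probe sets with a single gene symbol out of 28815 deposited. They were Bdnf (probe set 10474399), Ntf5 (10552938), Ntrk2 (10405633), Ntrk3 (10564667) and Ngfr (10390175). Ntf3 was not analysed here.

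Neurotrophins are secreted growth factors of neurons, made as precursors and cut to their mature form. Brain-derived neurotrophic factor (BDNF, from Bdnf) and neurotrophin-4 (from Ntf5, now called Ntf4) bind the receptor tyrosine kinase TrkB, which Ntrk2 encodes, while neurotrophin-3 (from Ntf3) prefers TrkC, the product of Ntrk3. The p75 receptor, from Ngfr, binds every neurotrophin and their precursors and can act with or against Trk receptors. In the hippocampus BDNF is made mainly by excitatory neurons in response to activity, through several promoters of which some bind the transcription factor CREB, and CBP is a histone acetyltransferase and coactivator of CREB.

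The mice were females aged 3 months from an F2 of C57BL/6J and DBA, either wild type (WT) or heterozygous for a deficiency of Crebbp, the CBP gene (cbp+/-, here CBP in array names), and the wild types were littermates. Housing was a standard cage (SC) or, for 2 weeks, environmental enrichment (EE) in a roomy box furnished with running wheels, toys and tubes. Each of the 16 arrays (GeneChip Mouse Gene 1.0 ST) read RNA pooled from 4 animals, with 5 pools of each genotype for standard housing and 3 for enrichment. A pool shows no spread between its animals, and the labels name no cell type to which the deficiency is limited. The design asks how a gene responds to enrichment, how its level differs with Crebbp genotype, and whether both depend on each other.

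The signal on each array is the log2 of the deposited intensity, and SD is the spread over the pools of a group. Differences are those of group means in 1 limma fit over all 16 arrays, with their standard error (SE), and a gene counted as called where its p adjusted over all 21780 probe sets was under 0.05. Signals of different probe sets are not compared gene by gene; they serve only to place probe sets among all others by brightness. The medians of the 16 arrays lay between 76.7 and 85.46 on the intensity scale. The arrays clustered into 4 sets that cross the study's groups and were derived from the same values. Set 1 held replicates 1 and 2 of every group, set 2 both standard-cage replicates 3, set 3 both standard-cage replicates 4, and set 4 the standard-cage replicates 5 with the enrichment replicates 3. Arrays labelled cbp+/- had no lower Crebbp signal than wild type (0.12 higher on average, SE 0.081, adjusted p = 0.999), and which part of Crebbp the deficiency alters relative to the probes was not examined here, so this does not check the labels. Below, cbp+/- stands for the arrays so labelled. Markers of CA1 pyramidal neurons (4 of 4), astrocytes (6 of 6) and oligodendrocytes (5 of 5) were brighter than the median probe set, as were 4 of 6 markers of dentate granule neurons. The same held for 4 of 4 endothelial, 5 of 6 meningeal and 3 of 4 thalamic markers, so brightness alone does not set the hippocampus apart from its neighbours.

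The promoters of Bdnf are shown first because one of them carries the core of the site that CREB binds, the cAMP response element. In RefSeq's promoter windows (build GRCm38.p6, from 250 bases before to 50 after a start site), Bdnf had 7 windows, Ntf3 had 2, and Ntrk2 and Ngfr 1 each. Both strands were searched for TGACGTCA, the full element, and for its core TGACG, which every full element contains. Of the 7 Bdnf windows 1 held the core and 0 the full element, and the windows of Ntf3, Ntrk2 and Ngfr held neither. Over all 32851 windows, 20.8% held the core and 1.79% the full element. The stretch before the start site of that Bdnf window lies at chr2:109692186-109692435 on the plus strand, and capitals mark the core, which reads TGACG on the minus strand and begins 35 bases before the start site.
Bdnf: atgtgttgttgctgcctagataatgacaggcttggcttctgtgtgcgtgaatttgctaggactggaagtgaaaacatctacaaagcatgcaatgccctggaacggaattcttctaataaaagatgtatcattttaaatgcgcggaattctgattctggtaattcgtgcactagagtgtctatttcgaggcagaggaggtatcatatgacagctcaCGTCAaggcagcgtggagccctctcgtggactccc
The match describes these letters only. The array has 1 probe set for Bdnf and does not separate transcripts by promoter.

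Bdnf was higher after enrichment in both genotypes, on every enrichment array, without passing the threshold over all genes. In wild-type mice its log2 signal was 6.91, 6.95, 6.97, 6.62 and 6.88 on the standard-cage arrays 1 to 5 and 7.29, 7.25 and 7.09 on the enrichment arrays 1 to 3. In cbp+/- mice it was 6.86, 6.84, 6.42, 6.71 and 6.93 in standard cages and 7.18, 7.23 and 7.22 in enrichment. In each genotype 3 of 3 enrichment arrays lay above every standard-cage array, and the lowest enrichment array of all (WT_EE_3) was brighter than the brightest standard-cage array (WT_SC_3). Of all probe sets, 9.16% were separated in this way within wild type, 1.64% within cbp+/- and 0.358%, or 78 probe sets, within each of both. The share separated across the genotypes as well was not counted.

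**Figure D1:**
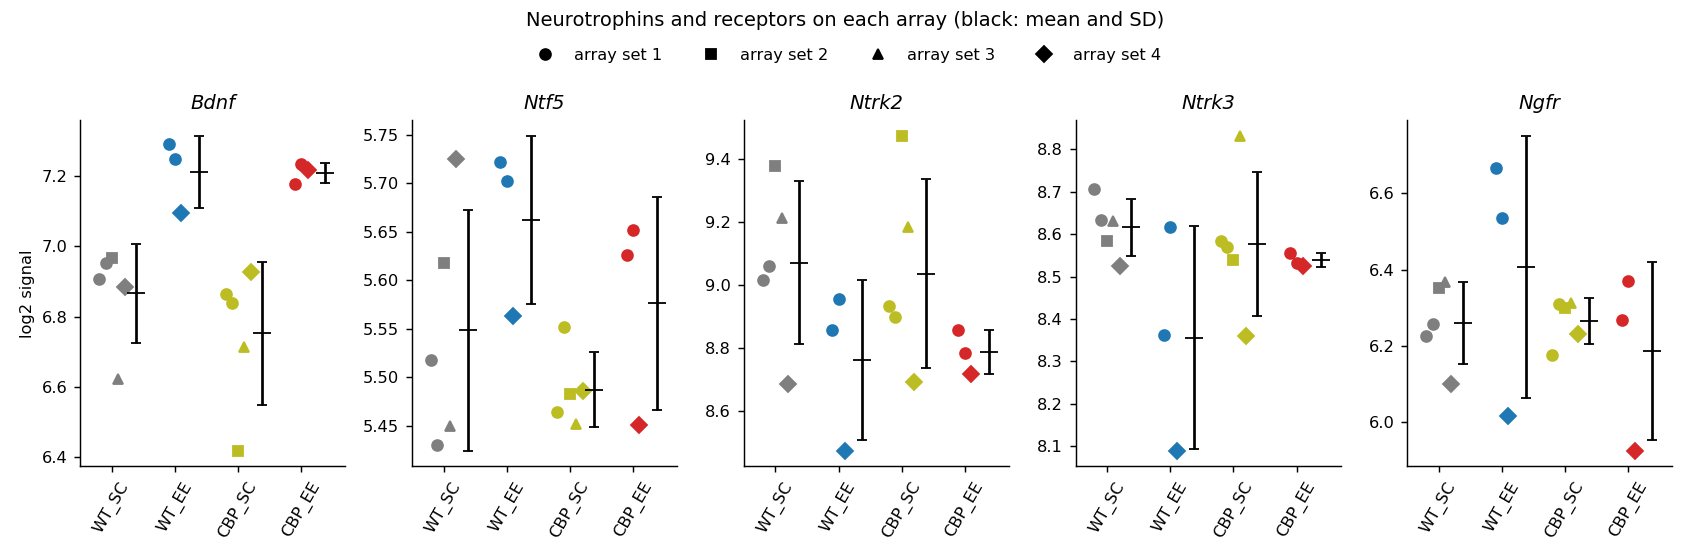
Log2 signal (vertical axis) of Bdnf, Ntf5, Ntrk2, Ntrk3 and Ngfr on each of the 16 arrays by group (horizontal axis: WT or CBP genotype, SC standard cage, EE enrichment); the marker shape gives the array set, and black bars give the mean and SD. Bdnf is the gene whose enrichment arrays (7.09 to 7.29) all lie above its standard-cage arrays (6.42 to 6.97).

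Mean Bdnf in wild type was 7.21 ± 0.10 after enrichment (SD, n = 3) against 6.87 ± 0.14 under standard housing (n = 5), which is 0.34 higher (SE 0.10, limma adjusted p = 0.153), or 1.27-fold. The cbp+/- means were 7.21 ± 0.029 (n = 3) and 6.75 ± 0.20 (n = 5), which is 0.46 higher (SE 0.10, limma adjusted p = 0.999), or 1.37-fold. That unadjusted limma p (0.000613) was rank 1 of 21780 in the cbp+/- comparison. The smallest adjusted p of any probe set there was 0.999, so the rank does not set Bdnf beyond what many tests can give. Averaged over genotypes Bdnf was 0.40 higher (SE 0.074, 95% interval 0.24 to 0.56, adjusted p = 0.114), or 1.32-fold, with rank 16 by p.

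For Bdnf alone, an exact two-sided permutation of the arrays within a genotype gave p = 0.0179 in each, the smallest that 56 arrangements can give. It restates the separation of the 3 enrichment arrays from the 5 standard-cage arrays and takes no account of the other genes tested. With limma, 0 of 5 members and 0% of all probe sets were called in each of the 3 housing comparisons. At an unadjusted p under 0.05, Bdnf and Ntrk3 were among the 17.8% of probe sets (3884) in wild type, Bdnf among the 2.82% (615) in cbp+/-, and Bdnf and Ntrk2 among the 19.1% (4168) averaged over genotypes.

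The difference in Bdnf was positive within each array set that holds both housings. In set 1 it was 0.34 in wild type and 0.35 in cbp+/-, and in set 4, with 1 array per group, it was 0.21 and 0.29. With the sets as a block it was 0.26 (SE 0.092, adjusted p = 0.120) and 0.37 (SE 0.092, adjusted p = 0.840). In set 1 alone Bdnf was called in wild type (adjusted p = 0.00712) and on average (adjusted p = 0.00539), where 29.9% and 25.1% of all probe sets were called too. With the replicate number as a block the average became 0.38 (SE 0.075, adjusted p = 0.0415) and was called, as were 1.5% of all probe sets. That block joins replicates 3 of different array sets, set 4 in enrichment and set 2 in standard cages. With the sets as a block the average was 0.31 (SE 0.0685, limma adjusted p = 0.0948) and was not called.

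The standard-cage arrays of Bdnf spread more than its enrichment arrays. The lowest, CBP_SC_3, WT_SC_4 (6.62) and CBP_SC_4 (6.71), were of sets 2 and 3, while WT_SC_3 of set 2 was the brightest (6.97). Since sets 2 and 3 hold no enrichment array, the housing comparison of Bdnf mixes sets. CBP_SC_3 had the lowest Bdnf signal (6.42), and without it the cbp+/- difference was 0.37. On that array the list of 6 choroid plexus markers had a mean log2 signal of 7.65 against 5.89 to 6.65 on the other 15 arrays. The part of those markers in its Bdnf value was not tested. As tissue RNA was pooled, fewer cells of a type and less RNA per cell cannot be told apart for any gene here.

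The Bdnf arrays of the genotypes overlapped in both housings. In standard cages cbp+/- was at 6.75 and wild type at 6.87, a difference of -0.11 (SE 0.090, 95% interval -0.31 to 0.079, adjusted p = 1.00). In enrichment the genotypes were at 7.21 each, with a difference of -0.002 (SE 0.12, 95% interval -0.25 to 0.25). The housing response of Bdnf was 0.11 larger in cbp+/- than in wild type (interaction, SE 0.15, 95% interval -0.20 to 0.43, adjusted p = 1.00). Without CBP_SC_3 the standard-cage genotype difference in Bdnf was -0.031 and the interaction 0.028, without WT_SC_4 they were -0.18 and 0.17, and without WT_EE_3 the interaction was 0.054. Within set 4 the genotype differences had the other sign, 0.044 in standard cages and 0.12 in enrichment. In order, its group means put both enrichment groups first, then wild type and then cbp+/- in standard cages, and only at the step between housings did the arrays of neighbouring groups not overlap. In all 4 comparisons that involve genotype, 0 of 5 members and 0% of all probe sets were called with limma. At an unadjusted p under 0.05 there were 215 probe sets for genotype in standard cages, 1139 in enrichment, 579 for the interaction and 852 for the average, with 0 members among them.

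**Figure D2:**
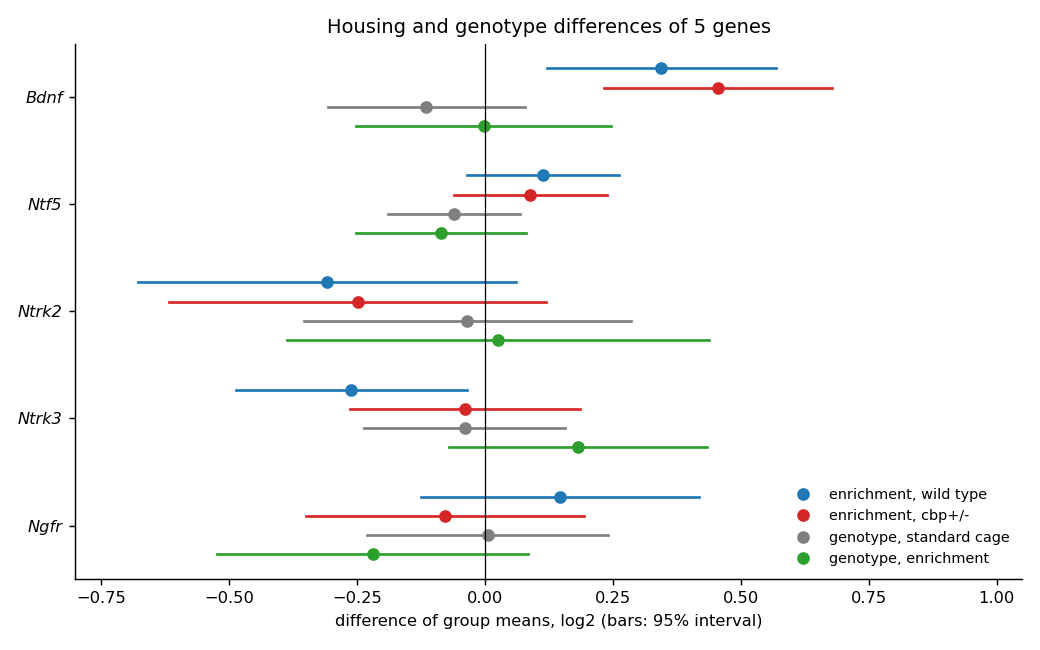
Differences of group means on the log2 scale (horizontal axis) for each gene, with 95% intervals from limma: enrichment minus standard cage in wild type and in cbp+/-, and cbp+/- minus wild type in each housing. The housing intervals of Bdnf (0.12 to 0.57 and 0.23 to 0.68) lie above 0, and its genotype intervals include 0.

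Ntf5, the other ligand measured, had overlapping groups. It was dim, with a mean signal of 5.56 and 27.5% of all probe sets dimmer, and no detection call tells whether it was over background. Its wild-type signal was 5.52, 5.43, 5.62, 5.45 and 5.73 in standard cages and 5.72, 5.70 and 5.56 in enrichment. In cbp+/- it was 5.46, 5.55, 5.48, 5.45 and 5.49 in standard cages and 5.63, 5.65 and 5.45 in enrichment. The brightest wild-type array for Ntf5 was a standard-cage one, whereas in cbp+/- 2 of 3 enrichment arrays were above every standard-cage array and the remaining one just below all of them. The housing difference was 0.11 in wild type (SE 0.070, adjusted p = 0.403) and 0.089 in cbp+/- (SE 0.070, adjusted p = 0.999).

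Those differences of Ntf5 were near the medians of probe sets of like brightness. Probe sets were put into 10 classes by their mean signal, and in the class of Ntf5 the median difference was 0.12 in wild type and 0.044 in cbp+/-. Within array set 1 Ntf5 differed by 0.24 and 0.13, and within set 4 by -0.16 and -0.036. With quantile normalization its wild-type difference was -0.005. Like Bdnf, Ntf5 and Ngfr were called within set 1 alone in wild type and on average, where 29.9% and 25.1% of all probe sets were called too. Genotype differences in Ntf5 were -0.061 in standard cages (SE 0.060) and -0.086 in enrichment (SE 0.078). Its means ran from 5.66 in wild-type enrichment through 5.58 and 5.55 to 5.49 in cbp+/- standard cages with neighbouring groups overlapping.

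Ntrk2, the receptor for BDNF, had lower means after enrichment in both genotypes, but its arrays overlapped and its level followed the array sets. The wild-type signal was 9.02, 9.06, 9.38, 9.21 and 8.69 in standard cages and 8.86, 8.95 and 8.47 in enrichment. In cbp+/- mice Ntrk2 was at 8.93, 8.90, 9.47, 9.18 and 8.69 in standard cages and at 8.86, 8.79 and 8.72 in enrichment. The brightest arrays were the standard-cage replicates 3 and 4 of both genotypes, and the dimmest were those of set 4. Enrichment differed from standard cage by -0.31 in wild type (SE 0.17, adjusted p = 0.360), by -0.25 in cbp+/- (SE 0.17, adjusted p = 0.999) and by -0.28 on average (SE 0.12, adjusted p = 0.240). Without WT_EE_3 the wild-type difference was -0.17, and without CBP_SC_3 the cbp+/- difference was -0.14.

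By array set, the ranges of Ntrk2 did not overlap. They were 8.79 to 9.06 in set 1, 9.38 to 9.47 in set 2, 9.18 to 9.21 in set 3 and 8.47 to 8.72 in set 4. Since sets 2 and 3 hold no enrichment array, the housing comparison mixes sets. Within set 1 Ntrk2 differed by -0.13 in wild type and -0.094 in cbp+/-, and within set 4 by -0.21 and 0.027. With the sets as a block the average was -0.11 (SE 0.048, adjusted p = 0.208).

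**Figure D3:**
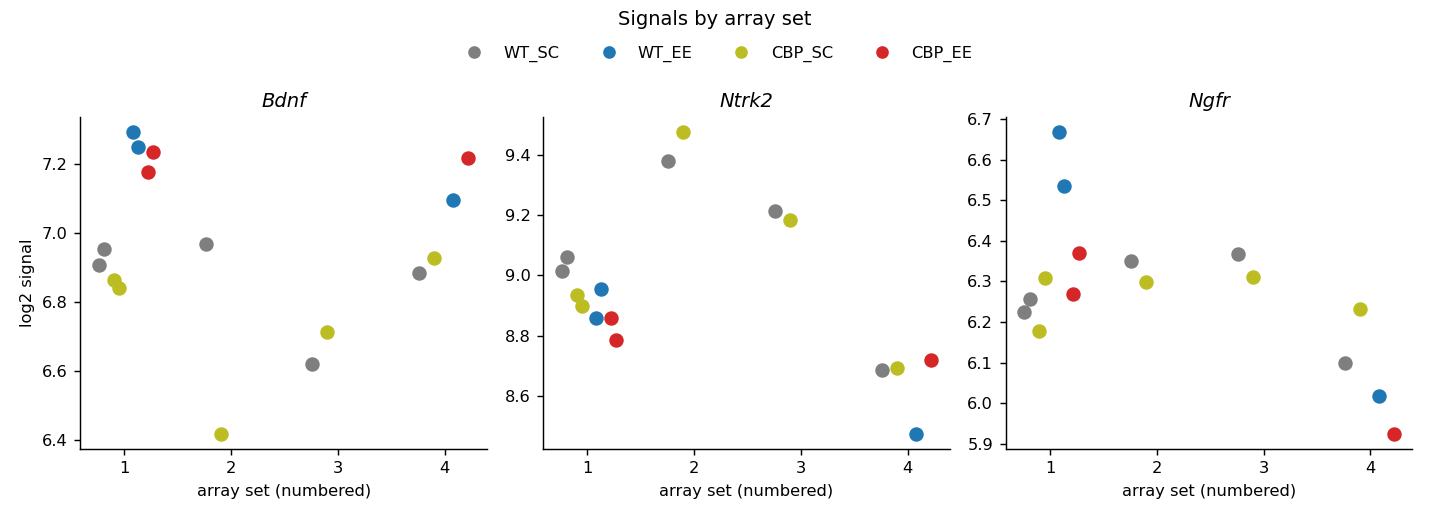
Log2 signal (vertical axis) of Bdnf, Ntrk2 and Ngfr on each array, placed by array set (horizontal axis, sets 1 to 4) and coloured by group. In sets 1 and 4 the enrichment arrays of Bdnf lie above the standard-cage arrays, while Ntrk2 takes a range of its own in each set, from 8.47 to 8.72 in set 4 to 9.38 to 9.47 in set 2. The sets were derived from the same arrays.

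Other measures moved with the sets as well. The mean of the 4 CA1 pyramidal markers, genes of the excitatory neurons of that field, was highest on WT_SC_3 (9.08), CBP_SC_3 (8.87) and WT_SC_4 (8.64), and between 8.03 and 8.39 on the other 13 arrays. By group it ranged from 8.19 to 9.08 in wild-type standard cages, 8.03 to 8.39 in wild-type enrichment, 8.14 to 8.87 in cbp+/- standard cages and 8.10 to 8.29 in cbp+/- enrichment. The mean of the 6 astrocyte markers, cells that make a TrkB form without the kinase domain, was 9.20 to 9.28 on the 4 arrays of set 4 and 9.42 to 9.65 on the others. The part of either cell type in the Ntrk2 signal was not tested, and receptor forms with and without the kinase domain were not separated. Genotype differences in Ntrk2 were -0.034 in standard cages (SE 0.15, 95% interval -0.35 to 0.28) and 0.026 in enrichment (SE 0.19, 95% interval -0.39 to 0.44). Their SEs were 0.060 and 0.077 with the replicate number as a block. Group means ran from 9.07 and 9.04 in wild-type and cbp+/- standard cages to 8.79 and 8.76 in cbp+/- and wild-type enrichment, and neighbours overlapped.

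Ntrk3, the receptor for neurotrophin-3, was lower after enrichment in wild type than in standard cages on 2 of 3 arrays, and close to its standard-cage level in cbp+/-. Its wild-type signal was 8.71, 8.63, 8.58, 8.63 and 8.52 in standard cages and 8.36, 8.62 and 8.09 in enrichment. In cbp+/- it was 8.58, 8.57, 8.54, 8.83 and 8.36 in standard cages and 8.56, 8.53 and 8.52 in enrichment. In wild type WT_EE_1 and WT_EE_3 lay below every standard-cage array and WT_EE_2 inside their range, while the 3 enrichment arrays of cbp+/- lay close together inside their standard-cage range. Group means ran from 8.62 and 8.58 in wild-type and cbp+/- standard cages through 8.54 in cbp+/- enrichment to 8.36 in wild-type enrichment, and neighbours overlapped.

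The housing difference in Ntrk3 was -0.26 in wild type (SE 0.11, 95% interval -0.49 to -0.035, adjusted p = 0.224) and -0.039 in cbp+/- (SE 0.11, 95% interval -0.26 to 0.19, adjusted p = 0.999). The difference between these responses, 0.22 (interaction, SE 0.15, unadjusted p = 0.158, limma adjusted p = 1.00), did not pass. Without WT_EE_3 the wild-type difference in Ntrk3 was -0.13 and the interaction 0.088, and without WT_EE_2 they were -0.39 and 0.35. Within set 1 it was -0.18 in wild type and -0.032 in cbp+/-, and within set 4 it was -0.44 and 0.17. In the brightness class that Ntrk3 and Ntrk2 share, the median was -0.093 in wild type, with the 5th to 95th percentile from -0.36 to 0.16.

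Ngfr, the p75 receptor, spread widely among enrichment arrays. Its mean signal over all arrays was 6.28, with 44% of all probe sets dimmer. In wild type its signal was 6.23, 6.26, 6.35, 6.37 and 6.10 in standard cages and 6.67, 6.54 and 6.02 in enrichment. The cbp+/- signal was 6.18, 6.31, 6.30, 6.31 and 6.23 in standard cages and 6.27, 6.37 and 5.92 in enrichment. In wild type 2 of 3 enrichment arrays were above and 1 was below every standard-cage array, and the low array of both genotypes was replicate 3, of set 4. The housing difference was 0.15 in wild type (SE 0.13, adjusted p = 0.566) and -0.078 in cbp+/- (SE 0.13, adjusted p = 0.999). The wild-type value was 0.016 without WT_EE_1, 0.082 without WT_EE_2 and 0.34 without WT_EE_3.

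The sign of the Ngfr difference depended on the array set. In set 1 it was 0.36 in wild type and 0.076 in cbp+/-, and in set 4 it was -0.083 and -0.31. In enrichment cbp+/- was below wild type on 3 of 3 same-numbered arrays, by 0.22 on average (difference -0.22, SE 0.14, adjusted p = 0.935). With the replicate number as a block the SE of that difference was 0.067 (limma adjusted p = 0.312). In standard cages the genotypes were at 6.27 and 6.26. Group means ran from 6.41 in wild-type to 6.19 in cbp+/- enrichment with both standard-cage groups between, and all overlapped. That Ngfr difference in enrichment was -0.089 without WT_EE_1, -0.41 without WT_EE_3 and -0.088 without CBP_EE_3. The interaction was -0.23 (SE 0.18, 95% interval -0.61 to 0.16, adjusted p = 1.00), and -0.095, -0.42 and -0.094 without the same arrays. Its SE was 0.0845 with the replicate number as a block (limma adjusted p = 0.731). Neurons of the basal forebrain that send cholinergic fibres to the hippocampus are known for high Ngfr. Of their 6 markers 0 were brighter than the median probe set, with mean signals from 5.02 (Lhx8) to 6.14 (Slc18a3), and the list mean ranged from 5.46 to 5.61 in wild-type standard cages, 5.61 to 5.83 in wild-type enrichment, 5.50 to 5.61 in cbp+/- standard cages and 5.50 to 5.69 in cbp+/- enrichment. Their part in the Ngfr signal was not tested.

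Compared with probe sets of like brightness, Bdnf lay outside the bulk in both genotypes. In its class the median housing difference was -0.015 in wild type, with the 5th to 95th percentile from -0.24 to 0.27, and -0.010 in cbp+/-, with these from -0.20 to 0.18. Its own values, 0.34 and 0.46, were above both ranges. Ntf5, Ntrk2, Ntrk3 and Ngfr lay inside the range of their class in both comparisons. Over all probe sets the median difference was 0.029 in wild type and 0.010 in cbp+/-, and the range of signals was narrower on wild-type enrichment arrays (interquartile range 2.22 to 2.37 on the log2 scale) than on wild-type standard-cage arrays (2.49 to 2.58).

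**Figure D4:**
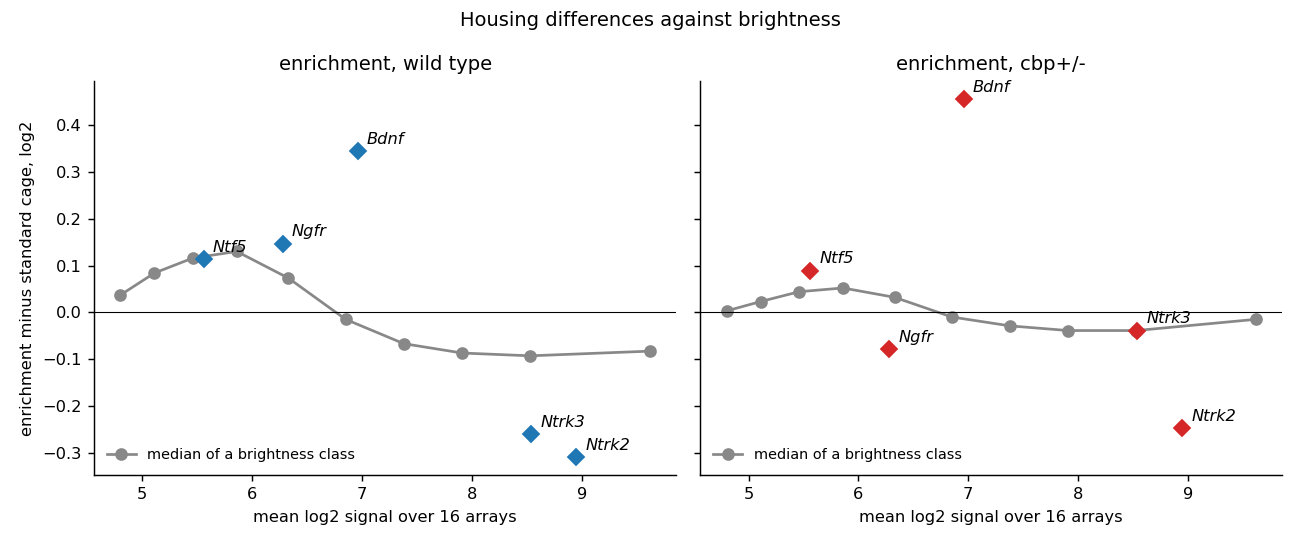
Enrichment minus standard cage on the log2 scale (vertical axis) against the mean log2 signal over 16 arrays (horizontal axis), in wild type and in cbp+/-; diamonds are the 5 genes and the grey line joins the medians of 10 brightness classes of all probe sets. Bdnf stands at 0.34 and 0.46 where the class medians are -0.015 and -0.010.

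The other genes of the pathway were described by lists drawn up from textbook knowledge, but with earlier results of these data known. Their counts therefore describe these data and are no independent support. With limma 0 members of any list were called in the averaged housing comparison, in which 58.9% of all probe sets were higher, the median was 0.021 and 19.1% had an unadjusted p under 0.05. Class medians varied with brightness, from 0.095 in class 4 to -0.066 in class 9 of the 10 classes, so the lists were also set against the median of each gene's class. Listed genes without a probe set of a single symbol were not analysed here.

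Genes known to be induced by TrkB signalling were all higher in sign after enrichment when averaged over genotypes, though not in each genotype or array set. All 14 measured of 15 had a positive average difference, with a median of 0.19, and 6 of them had an unadjusted p under 0.05. All 14 were above the median of their brightness class. Npy, a neuropeptide, had means of 9.77 ± 0.13 in wild-type enrichment (SD, n = 3) against 9.15 ± 0.36 in standard cages (n = 5), and of 9.75 ± 0.32 and 9.14 ± 0.28 in cbp+/-. Its average difference was 0.61 (SE 0.14, adjusted p = 0.127). Homer1, a scaffold of excitatory synapses, differed by 0.20 (SE 0.059, adjusted p = 0.149).

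The TrkB-induced list differed between the array sets in size. Its median was 0.40 in set 1, with 14 of 14 higher, and 0.089 in set 4, with 8 of 14 higher. Fos, an activity-induced transcription factor, was at 0.75 in set 1 and -0.12 in set 4, and Arc, a synaptic activity-regulated gene, by 0.80 and -0.018. By genotype 13 of 14 were higher in wild type, with a median of 0.24, and 13 of 14 in cbp+/-, with a median of 0.16. With quantile normalization the average median was 0.23. These genes respond to neuronal activity by other routes too, and a link to the Bdnf values was not tested.

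Adaptors and kinases downstream of Trk receptors were mostly lower in sign, and 30 of the 37 measured lay in the 4 brightest classes, whose medians were -0.049, -0.060, -0.066 and -0.047. Of 37 measured of 46, 5 were higher and 32 lower, with a median of -0.13, and 9 of the lower and 1 of the higher had an unadjusted p under 0.05. Against their class median 10 were above and 27 below, with a median of -0.079. Rps6ka5, a kinase that phosphorylates CREB and histone H3, differed by -0.20 (SE 0.050, adjusted p = 0.138) and Braf, a kinase upstream of ERK, by -0.22 (SE 0.069, adjusted p = 0.161). The list depended on scaling and set: its median was -0.079 with quantile normalization, -0.068 in set 1 and -0.005 in set 4, where 17 of 37 were higher.

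Receptors that sort or assist neurotrophins included Sort1, whose signal ran closest to that of Ntrk2. Of 9 measured of 9, 2 were higher and 7 lower, with a median of -0.095, or -0.039 with quantile normalization, -0.002 in set 1 and -0.018 in set 4, and 6 of 9 were below their class median. Sort1, which encodes sortilin, a partner of p75 for precursors, differed by -0.30 (SE 0.14, adjusted p = 0.264), and Sorl1, a sorting receptor of the same family, by -0.28 (SE 0.14, adjusted p = 0.295). In set 1 these were at -0.13 and -0.066, and in set 4 at -0.012 and -0.016.

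Enzymes and inhibitors of precursor processing were higher for 9 and lower for 3 of 12 measured of 14, with a median of 0.035, and 8 were above their class median. Mmp3 and Mmp9, extracellular proteases, differed by 0.10 (SE 0.032, adjusted p = 0.158) and 0.14 (SE 0.053, adjusted p = 0.191), and Mmp9 was at 0.21 in set 1 and -0.019 in set 4. Both were dim, and the classes with median signals of 5.11 and 5.46 had median differences of 0.054 and 0.080. Mmp3 means were 5.28 in enrichment against 5.12 in standard cages in wild type, and 5.12 against 5.08 in cbp+/-. Mmp9 means were 5.55 against 5.38, and 5.52 against 5.41. Effectors of p75 were higher for 3 and lower for 8 of 11 measured of 16, with a median of -0.034, and 6 were above their class median. The list median was -0.003 with quantile normalization, -0.038 in set 1 and 0.097 in set 4. Of this list Maged1, an adaptor that binds p75, differed by -0.18 (SE 0.057, adjusted p = 0.172) and Irak1, a kinase of the same route, by -0.11 (SE 0.065, adjusted p = 0.371).

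Regulators of Bdnf transcription were higher for 4 and lower for 19 of 23 measured of 25, with a median of -0.10, and 16 were below their class median. The list median was -0.076 with quantile normalization, -0.074 in set 1 and 0.082 in set 4. Crem, a CREB-family factor with activating and repressing forms, differed by 0.25 (SE 0.092, adjusted p = 0.189), from 6.13 ± 0.18 to 6.38 ± 0.27 in wild type and from 6.15 ± 0.16 to 6.40 ± 0.14 in cbp+/- (SD, n = 5 and 3). Camk4, a kinase of CREB, differed by -0.18 (SE 0.068, adjusted p = 0.192), or by -0.19 in set 1 and 0.082 in set 4. Creb1, CREB itself, was at -0.015 (SE 0.055, adjusted p = 0.902).

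**Figure D5:**
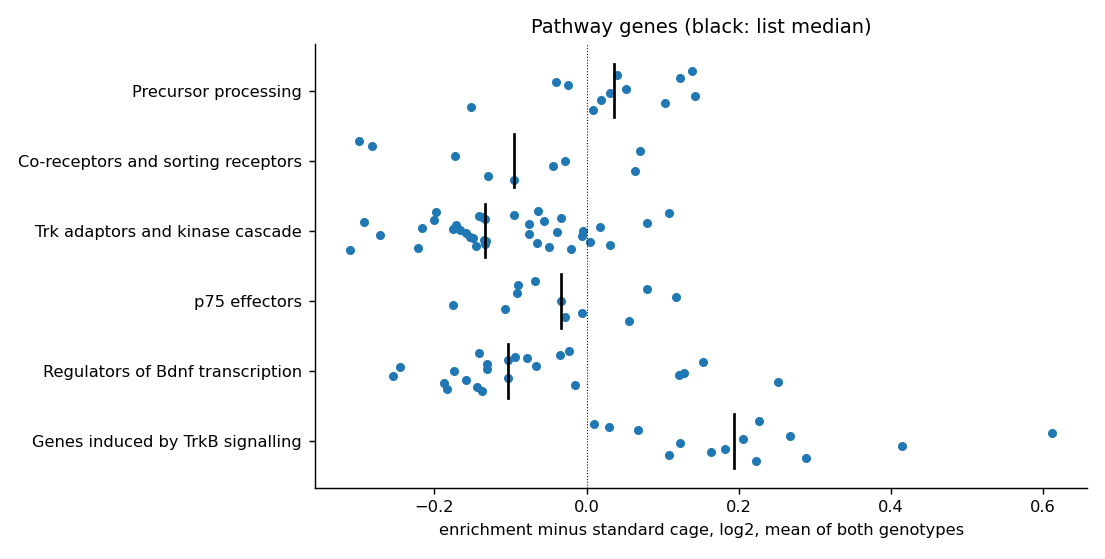
Average housing difference on the log2 scale (horizontal axis; both genotypes weighted equally) of each measured gene of 6 pathway lists (rows), with the list median as a black bar. The 14 genes induced by TrkB signalling all lie above 0 with a median of 0.19, and the 37 Trk adaptors and kinases centre on -0.13.

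Genes whose signal ran most like that of a member were taken by Pearson r over the 16 arrays, which share groups, sets and array quality. For Bdnf they were Tmem202 (r = 0.88), Ereg (0.86), Gpr171 (0.86), Zfp524 (0.85) and Cavin3 (0.85). Once the group means were subtracted, their r fell to between 0.56 and 0.78, and none of these 5 was among the 5 most alike on those deviations. Tmem202, Ereg and Gpr171 were dim, with mean signals of 5.12, 5.20 and 5.11, near the median signal of brightness class 2 (5.11). Zfp524 and Cavin3 were at 7.02 and 7.78. For Ntrk2 the nearest genes were Sort1 (r = 0.99, and 0.98 on deviations) and Zer1 (0.98 and 0.98).

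The other members had as nearest genes Pkd2l1 (0.91) and Slc5a4b (0.88) for Ntf5, Ehd3 (0.87) and Ago1 (0.87) for Ntrk3, and Alppl2 (0.93) and Igfbpl1 (0.92) for Ngfr. Pkd2l1 and Slc5a4b were dim as well, with mean signals of 5.09 and 5.17. Among the members themselves, Ntrk2 and Ntrk3 had r = 0.63 (0.55 on deviations), Ntrk2 and Ngfr 0.40 (0.59), and Bdnf and Ntrk2 -0.63 (-0.45).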

How the data were processed

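Hippocampal RNA of 16 pools was read on 16 arrays. Per the labels' protocols the authors hybridized RNA pooled in equal amounts from 4 separately extracted animals and processed the arrays in GeneSpring GX. RMA is named per the submitters' processing notes. Deposited were linear intensities, 0 of them missing, between 22.12 and 16520.86. No source used here gives tool versions. A baseline centring before the log was undone is unknown, and no scanner files were used. With 1 colour there is no direction between channels. Array medians were, by replicate number, 77.35, 77.95, 79.12, 78.71 and 79.03 (wild type, standard cage), 85.46, 82.14 and 79.72 (wild type, enrichment), 79.28, 80.19, 76.7, 78.79 and 78.06 (cbp+/-, standard cage) and 81.34, 82.43 and 77.65 (cbp+/-, enrichment). Precision is limited by the number of arrays.

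GEO's platform annotation gave 21780 of 28815 probe sets 1 gene symbol (19935 genes), 1605 several, and 5430 were unnamed here. Groups and replicate numbers came from the titles. Log2 intensities of all 21780 were fitted with limma 3.58.1 in R 4.3.3 (lmFit with 1 mean per group, eBayes, 12 residual degrees of freedom), with p adjusted by Benjamini-Hochberg and a threshold of 0.05, for 7 comparisons. The code was tested on simulated data. Array sets are 4 clusters (Ward's method on 1 minus the correlation of log2 values), derived from these data.

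Same-numbered arrays of both genotypes deviated together (correlations of deviations from group means 0.26 to 0.77 over 8 pairs, so the numbers pair genotypes by the data, which the labels do not say). Same-numbered arrays of both housings did not in wild type (-0.26, -0.01 and -0.39). In cbp+/- those correlations were 0.37, 0.29 and -0.04. Alternatives were quantile normalization, adding 16 before the log, leaving out dim probe sets, a robust trended eBayes, array weights, only the groups compared, the replicate number or array set as a block, single sets, and each array left out. No member had a second probe set, so that alternative gave no value.

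The members and lists were chosen with earlier results of these data known. All members are named in every comparison. Pathway genes are described by list, and named are the 2 of each list with the smallest p in the averaged housing comparison. Fos, Arc and Creb1, the list medians by setting and the counts against class medians, were added after their values were seen. The nearest genes are the 5 (Bdnf) or 2 (other members) of highest r, gene models left out. Promoter sequences are RefSeq's, build GRCm38.p6, searched with Python 3.11.15. No source used here gives the array's build, so genes carry no coordinates.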

Additional observations from a re-analysis of the deposited data

Results flagged for a closer look

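Among the standard-cage groups of 5 arrays, the Bdnf signal of WT_SC_4 (6.621 on the log2 scale) stood apart from the other 4 wild-type arrays (6.88 to 6.97): its gap to the nearest was 0.761 of the group's range, above Dixon's 95% critical value of 0.71. The test was made on 10 groups (5 genes in 2 genotypes), and chance alone sets off about 5% of groups. Its same-numbered partner CBP_SC_4, also of array set 3, was at 6.71.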

How the results depend on the processing

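No member was called in any comparison as reported, and settings moved that count in the housing comparisons and 1 genotype comparison. With array weights 3 members were called in wild type, 1 in cbp+/-, 3 on average and 1 (Ngfr, -0.262) for genotype in enrichment, when 24.1%, 4.77%, 28.3% and 11.4% of all probe sets were called. Array set 1 alone called 3 in wild type and 3 on average (29.9% and 25.1% of all). The replicate number as a block called 1 on average (Bdnf, 0.385, with 1.5% of all) and changed no other call. Replicates 3 of the 2 housings lie in different array sets. Leaving out each array called 0 to 1 on average (1, Bdnf, without CBP_EE_3, when 1.06% of all probe sets were called). The housing difference in Bdnf kept its sign under every setting tried: with array weights it was 0.346 in wild type, 0.361 in cbp+/- and 0.353 on average (called, with the shares above), in set 1 0.339 in wild type and 0.346 on average, in set 4 0.288 in cbp+/- and 0.249 on average, and 0.359 to 0.429 on average with each array left out.

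Several differences turned sign. With quantile normalization these were Ngfr for genotype in standard cages (-0.007) and housing on average (-0.013), Ntf5 for housing in wild type (-0.005) and the interaction (0.047), Ntrk2 for genotype in enrichment (-0.021) and Ntrk3 for housing in cbp+/- (0.002). With array weights they were Ngfr for housing in cbp+/- (0.010), Ntf5 for genotype in standard cages (0.002), Ntrk2 for genotype in enrichment (-0.086) and Ntrk3 for genotype on average (-0.042) and in enrichment (-0.030, against 0.182). In set 1 they were Ngfr for housing in cbp+/- (0.076), Ntf5 for genotype in standard cages (0.034), Ntrk2 for genotype in enrichment (-0.084) and Ntrk3 for genotype on average (-0.020). In set 4 they were Bdnf for genotype in standard cages (0.044), in enrichment (0.122) and on average (0.083), Ngfr for genotype on average (0.020) and housing in wild type (-0.083) and on average (-0.195), Ntf5 for housing in wild type (-0.163), in cbp+/- (-0.036) and on average (-0.099) and for the interaction (0.127), Ntrk2 for genotype in standard cages (0.007) and on average (0.126) and housing in cbp+/- (0.027), and Ntrk3 for housing in cbp+/- (0.165).

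With each array left out, ranges that crossed 0 were, for genotype in enrichment, Bdnf -0.060 to 0.037 and Ntrk2 -0.118 to 0.122; for genotype in standard cages, Ngfr -0.034 to 0.032, Ntrk2 -0.144 to 0.051 and Ntrk3 -0.103 to 0.015; and for genotype on average, Ntrk2 -0.076 to 0.044. For housing they were Ngfr -0.031 to 0.132 on average and -0.169 to 0.053 in cbp+/-, and Ntrk3 -0.093 to 0.025 in cbp+/-. For the interaction they were Ntf5 -0.075 to 0.038 and Ntrk2 -0.083 to 0.169. The cause was not tested for any of these. Leaving out dim probe sets removed Ntf5 and Ngfr, which then have no value, and set 4, with 1 array per group, allows no test. RMA intensities carry no detection call, so no signal over background can be given.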
